A study of Mus musculus with 12 samples.

Results

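The genes described here are those of glutathione synthesis, reduction and use in the mouse lung: 44 of the 20793 entries of the deposited table. They were chosen by symbol and not by any measured value. The set comprised 21 cytosolic and kappa-class glutathione S-transferases (symbols beginning with Gst and a class letter), 3 microsomal transferases (Mgst), 8 glutathione peroxidases (Gpx), 4 gamma-glutamyltransferases (Ggt), the 4 genes of synthesis and reduction (Gclc, Gclm, Gss and Gsr), and the glutaredoxins Glrx and Glrx2 with the glyoxalase genes Glo1 and Hagh. The 12 RNA sequencing libraries, 4 groups of 3, came from whole, flash-frozen lungs of mice of the inbred strain C57BL/6J. The groups were a diet of 60% fat or of 10% fat for 12 weeks, each with exposure to more than 95% oxygen or to room air. Whether the diet came before the exposure cannot be read from the labels, which give neither age nor sex nor the length of the exposure, and name no animal for a library. P-values therefore measure the spread between these libraries, which may be technical.

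Glutathione is a tripeptide of glutamate, cysteine and glycine and the most abundant low-molecular-weight thiol of the cell. Glutamate-cysteine ligase, made of the catalytic subunit Gclc and the modifier subunit Gclm, performs the rate-limiting step of its synthesis, and glutathione synthetase (Gss) adds glycine. Peroxidases use it to reduce hydrogen peroxide and lipid peroxides, transferases couple it to electrophiles, and glutathione reductase (Gsr) returns the oxidized form to the reduced one. In the lung it is present within cells and in the fluid that lines the airspaces, and many of the genes are known targets of the transcription factor Nrf2.

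Levels are RPKM, reads scaled by transcript length and by library depth, which can be compared between genes because they are scaled by length. Log2 changes are of RPKM + 0.5 and come with a standard error (SE). That scale understates the change of genes with low values, and folds are given on it too. A gene is called higher or lower, and said to have risen or fallen, where limma's adjusted p was under 0.05 over the 13324 genes tested. Of the 44 genes, 40 reached 1 RPKM in at least 3 libraries and were tested. Gpx5 and Gpx6, peroxidases known from the epididymis and the olfactory epithelium, were listed at 0 in all 12 libraries. Gstt4 did not exceed 0.173 RPKM, and Gstm3 ran from 0.186 to 0.796 RPKM.

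Rough depths read from the steps between low values were 20.7 to 28.9 M reads per library. The summed RPKM of a library ran from 538746 to 731004. Scgb1a1, the major secretory protein of club cells, held 17.4% to 24.6% of that sum in room air and 2.68% to 4.63% under oxygen. The median log2 change of all tested genes was −0.09 on 60% fat and −0.08 on 10% fat, so the levels of other genes are read against a small downward shift. In bulk tissue, fewer cells of a type and less RNA per cell cannot be told apart.

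On the 60% fat diet, 14 of the 40 tested genes (35%) were higher under oxygen and 17 (42.5%) lower. Of all tested genes, 26.3% were called higher and 36.5% lower in the same comparison. On the 10% fat diet 15 genes (37.5%) rose and 11 (27.5%) fell, beside 25.3% and 34.2% of all tested genes. Of all calls, 41.9% were higher on 60% fat and 42.5% on 10% fat, which became 49.9% and 49.7% with median-ratio scaling and 50.1% and 50.5% with quantile normalization. The median log2 change of the 40 genes was 0.03 on 60% fat and 0.08 on 10% fat. The shares are given beside that background as a description. The size of single changes differed widely, from −1.63 to 3.46 on 60% fat and from −1.30 to 3.32 on 10% fat. The genes called in both diets were called in the same direction. Higher in both were 12 genes: Gclc, Gclm, Gss, Gsr, Gpx2, Gsta1, Gsta2, Gsta3, Gsta4, Gsto1, Gstp1 and Ggt1. Lower in both were 11: Gstt1, Gstt3, Gstk1, Gstz1, Gstm2, Gstm7, Mgst2, Gpx8, Ggt5, Glo1 and Hagh. The share of all tested genes called alike in both diets was not counted. These counts and directions are therefore a list and no result about the set. The summed RPKM of the 44 genes was, on 60% fat, 5148 ± 200 (SD, n = 3) with oxygen against 4032 ± 396 with room air, and on 10% fat 5040 ± 31.9 against 3783 ± 246. Neither pair of groups overlapped (two-sided exact permutation test, p = 0.1, the smallest that 3 against 3 libraries can give). The sums weigh abundant genes most. Within them Gclc alone had means of 78.3 RPKM in room air and 858 under oxygen on 60% fat, and of 125 and 703 on 10% fat.

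**Figure D1:**
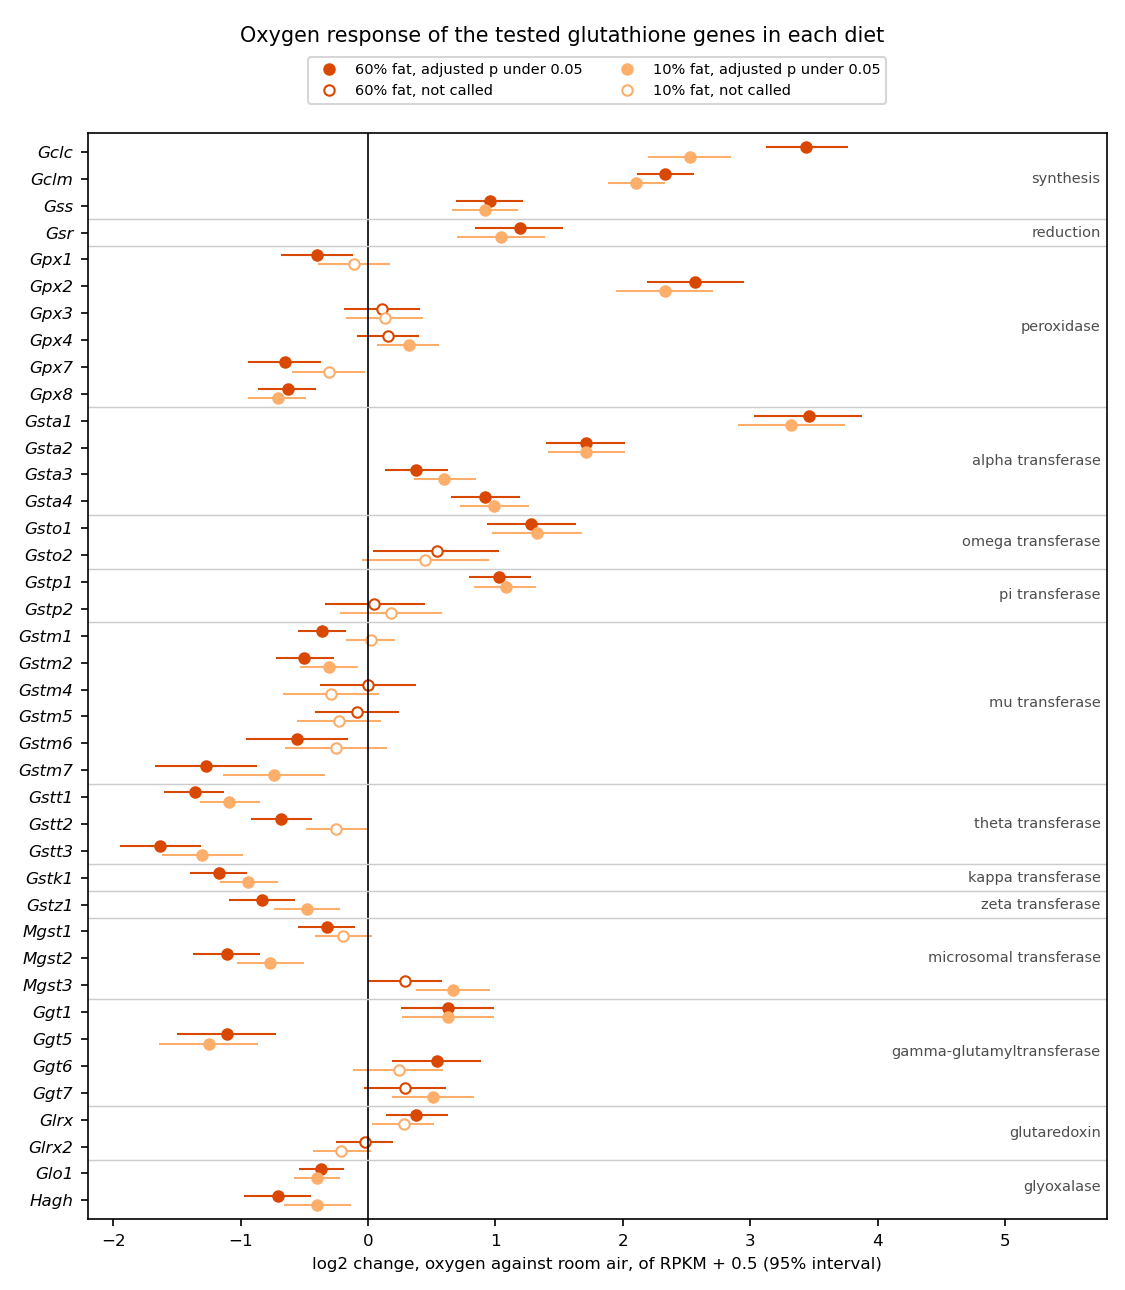
Log2 change under oxygen against room air (x axis, of RPKM + 0.5, with 95% intervals from limma) of the 40 tested genes, ordered by class; dark points are the 60% fat diet, light points the 10% fat diet, and filled points have an adjusted p under 0.05. Synthesis, reduction and alpha-class genes lie to the right of 0 in both diets and theta, kappa and zeta genes to the left, with Gsta1 (3.46) and Gstt3 (−1.63) as the ends on 60% fat.

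All 3 synthesis genes and the reductase gene rose in both diets. Beside them, 26.3% of all tested genes were called higher on 60% fat and 25.3% on 10% fat. Gclc (chr9:77602341-77642296; positions here are whole genes as the table gives them, in mm8 or mm9, which the submitters' notes name without saying which applies) was at 95.1, 115 and 164 RPKM in room air on 10% fat, at 76.9, 79.1 and 79.0 in room air on 60% fat, at 668, 718 and 723 under oxygen on 10% fat, and at 848, 920 and 806 under oxygen on 60% fat. Every oxygen library lay far above every room-air library. The log2 change was 3.44 ± 0.15 (SE) on 60% fat, a 10.9-fold rise (adjusted p = 8.67e-09), and 2.53 ± 0.15 on 10% fat, a 5.77-fold rise (adjusted p = 1.13e-07). By level, Gclc was 9th of the 44 genes in room air on 10% fat, 11th on 60% fat, and 2nd under oxygen in both diets, behind Gpx3. In the whole table it ranked between 439 and 1025 in the room-air libraries and between 69 and 105 in the oxygen libraries. Its share of the summed RPKM of the 44 genes was 1.95% ± 0.167 (SD, n = 3) in room air and 16.7% ± 0.468 under oxygen on 60% fat, and 3.3% ± 0.969 and 13.9% ± 0.657 on 10% fat.

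Gclm (chr3:121948474-121970133), whose product binds Gclc and raises its catalytic efficiency, was at 22.4, 22.7 and 25.9 RPKM in room air on 10% fat, at 21.8, 21.5 and 25.2 in room air on 60% fat, at 96.7, 112 and 101 under oxygen on 10% fat, and at 108, 134 and 110 under oxygen on 60% fat. The room-air groups coincided and the oxygen groups lay wholly above them. The rise was 2.33 ± 0.10 (log2, SE) on 60% fat (adjusted p = 8.88e-09) and 2.10 ± 0.10 on 10% fat (adjusted p = 3.07e-08). The ratio of the Gclc to the Gclm level was 3.45 ± 0.286 (SD, n = 3) in room air and 7.34 ± 0.488 under oxygen on 60% fat, and 5.21 ± 1.06 and 6.82 ± 0.368 on 10% fat. Under oxygen the ratios of each diet lay above those of its room-air libraries (exact permutation p = 0.1 in each diet, the smallest possible). The 60% fat libraries in room air lay below the 10% fat ones (exact permutation p = 0.1), while the diets overlapped under oxygen (exact permutation p = 0.3).

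Gss (chr2:155388918-155418442) was at 19.6, 23.0 and 19.4 RPKM in room air on 10% fat, at 21.7, 26.9 and 20.3 in room air on 60% fat, at 38.9, 42.3 and 37.1 under oxygen on 10% fat, and at 45.2, 50.7 and 38.9 under oxygen on 60% fat. It rose 1.94-fold on 60% fat (log2 change 0.96 ± 0.12, adjusted p = 2.66e-05) and 1.89-fold on 10% fat (0.92 ± 0.12, adjusted p = 4.28e-05), with no overlap between exposures. On 60% fat its 95% interval (0.69 to 1.22) lay below that of Gclm (2.11 to 2.56). Gsr (chr8:34763709-34808634) was at 35.7, 35.4 and 57.4 RPKM in room air on 10% fat, at 44.2, 37.4 and 44.1 in room air on 60% fat, at 81.5, 80.5 and 98.1 under oxygen on 10% fat, and at 93.2, 102 and 92.5 under oxygen on 60% fat. Its rise was 1.19 ± 0.16 (log2) on 60% fat (adjusted p = 4.07e-05) and 1.04 ± 0.16 on 10% fat (adjusted p = 0.000128). The third library of room air on 10% fat was the highest of the room-air libraries for Gclc, Gclm and Gsr alike, and still lay below every oxygen library.

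**Figure D2:**
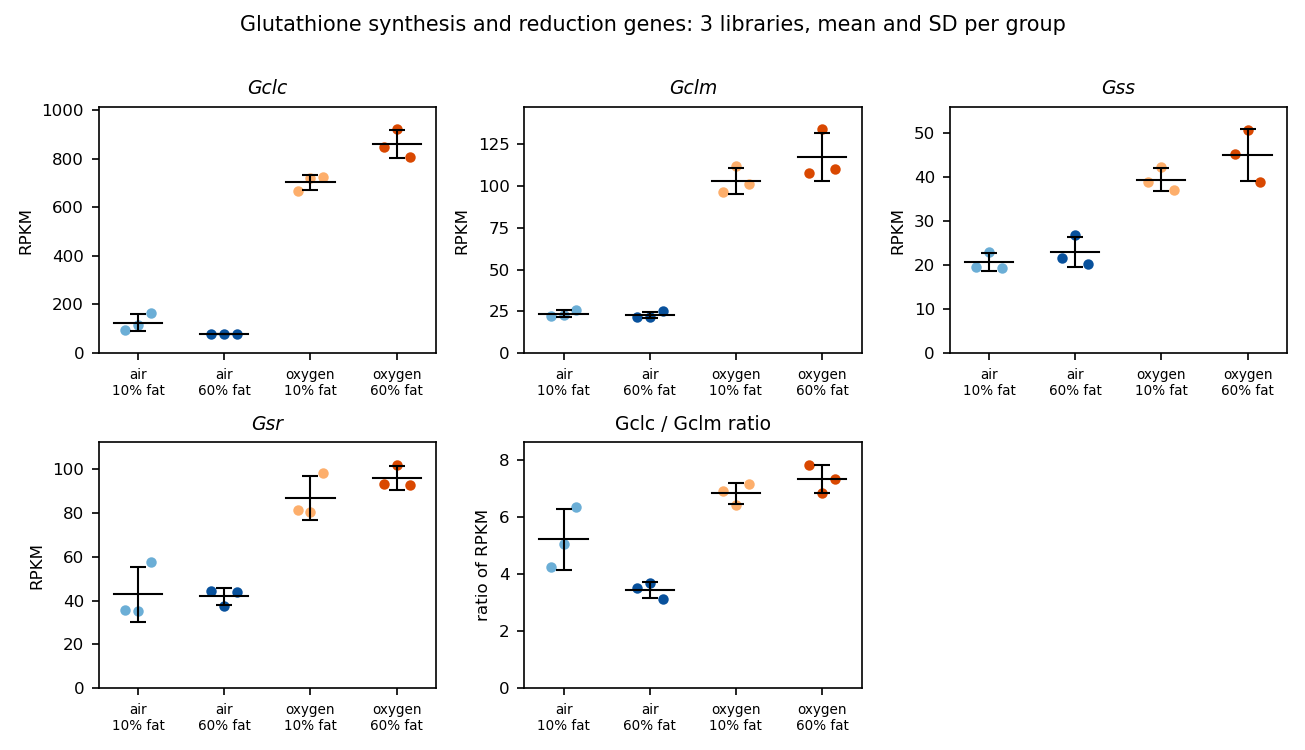
RPKM of Gclc, Gclm, Gss and Gsr and the ratio of Gclc to Gclm (y axes) in the 12 libraries by group; points are libraries in replicate order, lines the group means and bars the SD. Both oxygen groups stand above both room-air groups in every panel, and in room air the Gclc points are spread on 10% fat (95.1 to 164) and close together on 60% fat (76.9 to 79.1).

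The sequence around the start of a gene is shown for the 3 genes with the largest rises that had an entry (Gclm, Gsta1 and Gpx2) and for the pair Gstp1 and Gstp2, neighbours of which the first rose and the second did not. The windows hold 250 bases before and 50 bases after the RefSeq start, 5′ to 3′ on the gene's strand, in GRCm38.p6, a later build than that of the table. Gclm lies at chr3:122245307-122245606 on the plus strand, Gsta1 at chr9:78230419-78230718 (plus), Gpx2 at chr12:76795505-76795804 (minus), Gstp1 at chr19:4037863-4038162 (minus) and Gstp2 at chr19:4042172-4042471 (minus). Capitals mark matches, on either strand, to TGACNNNGC, the core of the antioxidant response element that Nrf2 binds, or to TGACTCA, the AP-1 element.
Gclm: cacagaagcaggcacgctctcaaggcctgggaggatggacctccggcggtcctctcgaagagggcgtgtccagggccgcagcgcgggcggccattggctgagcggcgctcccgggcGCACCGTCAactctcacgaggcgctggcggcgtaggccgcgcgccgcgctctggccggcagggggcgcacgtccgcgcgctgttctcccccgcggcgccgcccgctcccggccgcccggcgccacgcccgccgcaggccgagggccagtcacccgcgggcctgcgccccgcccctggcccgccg
Gsta1: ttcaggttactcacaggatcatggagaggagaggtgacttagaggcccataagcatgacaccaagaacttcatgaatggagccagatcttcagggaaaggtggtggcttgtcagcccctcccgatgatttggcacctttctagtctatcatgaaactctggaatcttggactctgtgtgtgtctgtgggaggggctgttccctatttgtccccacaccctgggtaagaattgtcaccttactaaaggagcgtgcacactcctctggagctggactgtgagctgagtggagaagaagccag
Gpx2: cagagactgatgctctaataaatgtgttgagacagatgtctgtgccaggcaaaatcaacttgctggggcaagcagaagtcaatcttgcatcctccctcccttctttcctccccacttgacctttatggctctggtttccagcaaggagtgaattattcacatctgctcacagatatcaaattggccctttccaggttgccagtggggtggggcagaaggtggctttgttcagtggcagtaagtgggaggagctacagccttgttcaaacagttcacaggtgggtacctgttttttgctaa
Gstp1: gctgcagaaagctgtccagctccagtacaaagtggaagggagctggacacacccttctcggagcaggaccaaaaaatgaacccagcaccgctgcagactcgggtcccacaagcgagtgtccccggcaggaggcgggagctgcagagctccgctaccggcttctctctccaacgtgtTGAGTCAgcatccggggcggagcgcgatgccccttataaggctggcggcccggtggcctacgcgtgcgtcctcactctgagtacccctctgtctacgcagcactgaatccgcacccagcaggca
Gstp2: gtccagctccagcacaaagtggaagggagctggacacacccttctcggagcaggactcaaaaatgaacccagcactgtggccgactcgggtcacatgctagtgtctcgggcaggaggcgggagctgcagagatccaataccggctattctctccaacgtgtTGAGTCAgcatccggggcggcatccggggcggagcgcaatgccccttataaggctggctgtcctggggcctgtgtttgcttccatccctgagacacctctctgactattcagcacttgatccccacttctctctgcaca
Gclm held the antioxidant core on the minus strand from −134, Gsta1 and Gpx2 held neither motif within these bases, and Gstp1 and Gstp2 each held the AP-1 element, from −74 and −89. A gene was counted where any of its windows matched, and the 27025 genes in the RefSeq table had 32851 windows. Gclc, Gsr, Gsta4, Gstt2 and Ggt5 had no window. Of the 44 genes 39 had at least 1 window, 59 windows in all. Of these 39, 7 (17.9%) held the antioxidant core, beside 14% of all 27025 genes in the RefSeq table: Gclm, Ggt1 and Gsta3, which rose in both diets, Gstm7 and Hagh, which fell in both, Mgst1, which fell on 60% fat, and Gstm5, which was not called. The AP-1 element was found in 5 (12.8%), beside 5.95% of all genes: Glrx, Gstm5, Gstp1, Gstp2 and Mgst2. The windows of Gstp1 and Gstp2 were identical at 243 of 282 aligned bases (86.2%). Genes with a match thus included genes that rose, fell and were not called, and a match is a description of the letters alone. Other forms of either motif were not searched. Whether windows without the antioxidant core, those of Gstp1 and Gstp2 included, hold another form that Nrf2 binds was not tested.

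Of 6 tested peroxidase genes, 1 rose and 3 fell on 60% fat, and 2 rose and 1 fell on 10% fat. With 26.3% of all genes higher and 36.5% lower on 60% fat, and 25.3% and 34.2% on 10% fat, these counts are no result about the class, and the genes are described singly. Gpx2 (chr12:77893321-77896541), a peroxidase known from gut and other epithelia, was at 18.3, 30.4 and 28.4 RPKM in room air on 10% fat, at 20.3, 30.5 and 23.1 in room air on 60% fat, at 132, 130 and 122 under oxygen on 10% fat, and at 145, 159 and 137 under oxygen on 60% fat. Oxygen libraries were all above room-air libraries, and the rise was 5.94-fold on 60% fat (log2 change 2.57 ± 0.17, adjusted p = 2.08e-07) and 5.02-fold on 10% fat (2.33 ± 0.17, adjusted p = 5.93e-07). Of its 50-base stretches 18.9% also occur in a pseudogene.

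Gpx3, Gpx4 and Gpx1 were the most abundant peroxidase genes. Gpx3 (chr11:54716355-54723884), which encodes the secreted plasma enzyme, had the highest mean level of all 44 genes in each group, with 819, 715 and 783 RPKM in room air on 10% fat, 793, 993 and 685 in room air on 60% fat, 782, 876 and 880 under oxygen on 10% fat, and 763, 1007 and 888 under oxygen on 60% fat. The groups overlapped, and the log2 change was 0.11 (95% interval −0.19 to 0.41) on 60% fat and 0.13 (−0.17 to 0.43) on 10% fat. Gpx4 (chr10:79516254-79519184), which reduces lipid hydroperoxides within membranes, was at 384, 480 and 437 RPKM in room air on 10% fat, at 415, 549 and 426 in room air on 60% fat, at 563, 526 and 525 under oxygen on 10% fat, and at 539, 501 and 497 under oxygen on 60% fat. It rose by 0.32 ± 0.11 (log2) on 10% fat (adjusted p = 0.0298), and on 60% fat the change was 0.16 ± 0.11 (adjusted p = 0.251). The 10% fat call was lost when replicate 1 or 3 of room air or any 1 of the 3 oxygen libraries was left out (adjusted p from 0.0545 to 0.115) and with quantile normalization (0.12, adjusted p = 0.176), and on 60% fat a call appeared without room-air replicate 2 (0.28, adjusted p = 0.0219). Of the 50-base stretches of Gpx4, 53.5% also occur in a pseudogene.

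Gpx1 (chr9:108241410-108242673), the cytosolic selenium-dependent enzyme, was at 290, 352 and 329 RPKM in room air on 10% fat, at 320, 403 and 455 in room air on 60% fat, at 306, 287 and 304 under oxygen on 10% fat, and at 340, 263 and 286 under oxygen on 60% fat. It fell by 0.40 on the log2 scale on 60% fat (SE 0.13, adjusted p = 0.0174), although 1 oxygen library lay within the room-air range, and was not called on 10% fat (−0.11 ± 0.13, adjusted p = 0.487). The call on 60% fat was lost without room-air replicate 3 (−0.29, adjusted p = 0.0821), without oxygen replicate 2 (−0.32, 0.0785), without oxygen replicate 3 (−0.38, 0.0523) and with median-ratio scaling (−0.31, 0.0792). The endoplasmic reticulum enzyme gene Gpx8 fell 1.55-fold on 60% fat and 1.64-fold on 10% fat, from means of 48.5 and 49.9 RPKM in room air. Gpx7, of the same compartment, fell 1.57-fold on 60% fat. On 10% fat its change was −0.31 ± 0.13 (adjusted p = 0.0583). That gene passed without room-air replicate 1 (−0.38, adjusted p = 0.0427), without oxygen replicate 1 (−0.46, 0.00682) and without replicate 2 of room air on 60% fat, which enters through the shared spread (−0.31, 0.0436).

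**Figure D3:**
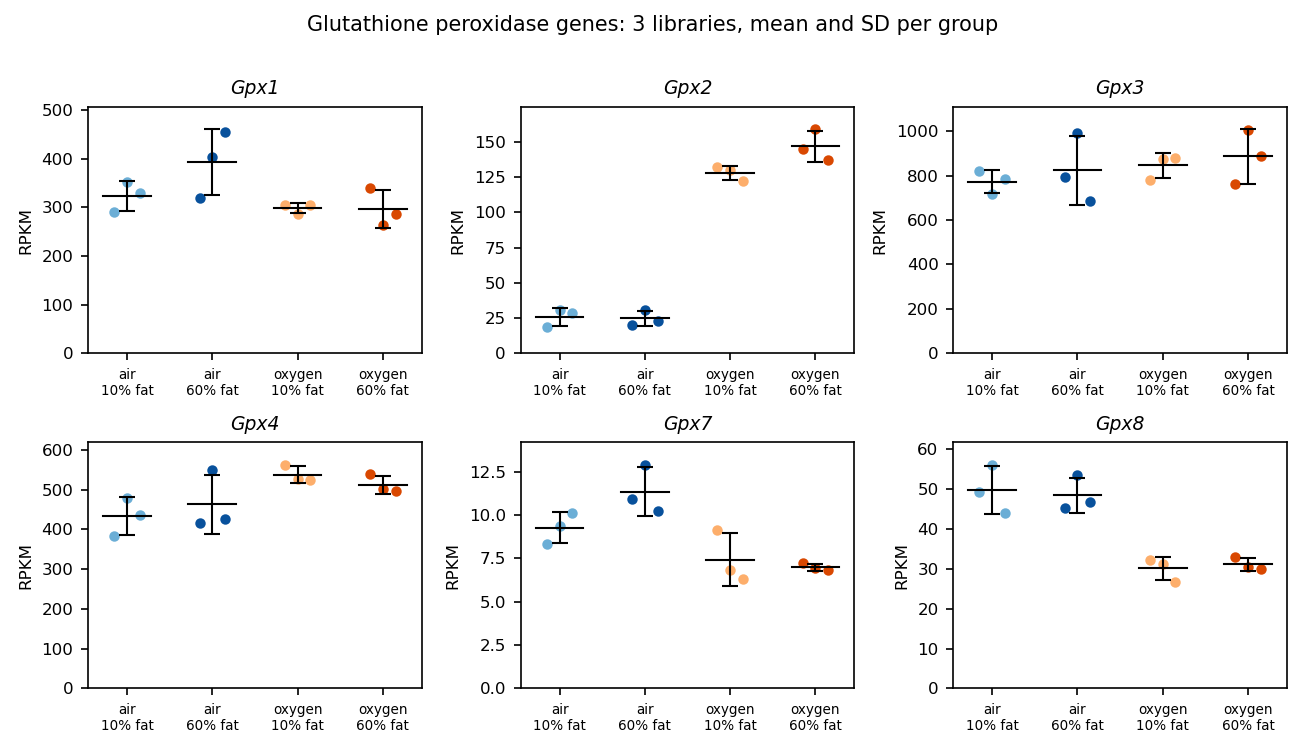
RPKM (y axes) of the 6 tested glutathione peroxidase genes in the 12 libraries by group; points are libraries in replicate order, lines the group means and bars the SD. Gpx2 stands at 18.3 to 30.5 in room air and 122 to 159 under oxygen, Gpx8 is lower under oxygen in both diets, and the groups of Gpx3 overlap.

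Transferase genes were called in both directions, and no test of a class was made; the shares over all tested genes were 26.3% higher and 36.5% lower on 60% fat and 25.3% and 34.2% on 10% fat. All 4 alpha-class genes rose in both diets, as did 1 of 2 omega-class and 1 of 2 pi-class genes. Of the 3 tested theta-class genes, 3 fell on 60% fat and 2 on 10% fat, and the kappa gene and the zeta gene fell in both diets. In the mu class 4 of 6 fell on 60% fat and 2 of 6 on 10% fat. Of the 3 microsomal genes 2 fell on 60% fat, and on 10% fat 1 rose and 1 fell. The summed RPKM of the cytosolic, kappa and microsomal transferases was 2039 ± 57.5 (SD, n = 3) with oxygen against 1976 ± 152 with room air on 60% fat (exact permutation p = 0.5), and 2148 ± 79.3 against 1833 ± 220 on 10% fat (exact permutation p = 0.2).

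Alpha-class enzymes are known for acting on products of lipid peroxidation, Gsta4 above all on 4-hydroxynonenal. Gsta1 (chr9:78078475-78090490) was at 0.255, 0.0546 and 0.0624 RPKM in room air on 10% fat, at 0.197, 0.158 and 0.0608 in room air on 60% fat, at 4.99, 5.95 and 6.16 under oxygen on 10% fat, and at 4.71, 8.32 and 6.89 under oxygen on 60% fat. By the rough depths that is between 1.0 and 4.1 reads per room-air library and between 68.7 and 118.8 per oxygen library. The log2 change of RPKM + 0.5 was 3.46 ± 0.19 on 60% fat (adjusted p = 5.66e-08) and 3.32 ± 0.19 on 10% fat (adjusted p = 1.12e-07), and with so few room-air reads its size depends on the added 0.5. Gsta1 passed the filter of 1 RPKM only through the oxygen libraries, where it was high, so its p-values are no independent support for the rise. Gsta2 (chr9:78178826-78194952) was at 2.79, 2.49 and 2.65 RPKM in room air on 10% fat, at 2.91, 2.45 and 2.34 in room air on 60% fat, at 10.4, 9.01 and 10.0 under oxygen on 10% fat, and at 7.97, 12.3 and 8.72 under oxygen on 60% fat. It rose 3.27-fold on 60% fat (adjusted p = 9.7e-07) and 3.28-fold on 10% fat (adjusted p = 1.24e-06), with every oxygen library above every room-air library. Of the 50-base stretches of Gsta1, 89.7% occur in another gene too, as do 64.2% of those of Gsta2. How the reads of these near-identical genes were split is therefore uncertain.

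The 2 more abundant alpha genes changed less. Gsta4 rose 1.9-fold on 60% fat (log2 change 0.92 ± 0.12) and 1.99-fold on 10% fat (0.99 ± 0.12), from room-air means of 97.2 and 92.5 RPKM to 185 and 184. Gsta3 rose 1.3-fold on 60% fat (0.38 ± 0.11, adjusted p = 0.0122) and 1.52-fold on 10% fat (0.60 ± 0.11, adjusted p = 0.00065). On 60% fat Gsta3 was no longer called without room-air replicate 3 (0.27, adjusted p = 0.0605) or with quantile normalization (0.19, adjusted p = 0.169).

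Gsto1 (chr19:47929478-47939278), an omega-class enzyme with thioltransferase and dehydroascorbate reductase activity, was at 147, 237 and 144 RPKM in room air on 10% fat, at 168, 192 and 174 in room air on 60% fat, at 492, 397 and 406 under oxygen on 10% fat, and at 464, 409 and 426 under oxygen on 60% fat. The lowest oxygen library lay well above the highest room-air library, and the rise was 2.43-fold on 60% fat (log2 change 1.28 ± 0.16, adjusted p = 2.72e-05) and 2.51-fold on 10% fat (1.33 ± 0.16, adjusted p = 2.42e-05). Its neighbour Gsto2 ran from 0.573 to 2.38 RPKM and was not called, with a log2 change of 0.54 ± 0.23 on 60% fat (adjusted p = 0.0585) and 0.45 ± 0.23 on 10% fat (adjusted p = 0.109). Gsto2 passed on 60% fat without room-air replicate 1 (0.66, adjusted p = 0.0419), room-air replicate 2 (0.70, 0.0259) or oxygen replicate 3 (0.69, 0.0341), and on 10% fat without replicate 3 of room air on 60% fat (0.45, 0.0345).

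Gstp1, the pi-class enzyme whose window is printed with that of Gstp2, rose from means of 42.8 to 87.5 RPKM on 60% fat (log2 change 1.03 ± 0.11, adjusted p = 7.87e-06) and from 41.4 to 87.7 on 10% fat (1.08 ± 0.11, adjusted p = 7.06e-06). Gstp2 stayed between 1.73 and 3.33 RPKM in all libraries, with a log2 change of 0.05 (95% interval −0.34 to 0.45) on 60% fat and 0.18 (−0.22 to 0.58) on 10% fat. The genes share 62.3% of the 50-base stretches of Gstp1, so reads may have been split between them. With quantile normalization Gstp2 was called higher on 10% fat (0.48, adjusted p = 0.0484).

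The largest falls on 60% fat were those of a pair of theta-class genes. Gstt3 (chr10:75236866-75244159) was at 20.9, 23.9 and 19.9 RPKM in room air on 10% fat, at 26.1, 28.8 and 22.2 in room air on 60% fat, at 10.8, 7.55 and 7.37 under oxygen on 10% fat, and at 8.98, 6.88 and 8 under oxygen on 60% fat. It was 3.1-fold lower on 60% fat (log2 change −1.63 ± 0.15, adjusted p = 2.04e-06) and 2.46-fold lower on 10% fat (−1.30 ± 0.15, adjusted p = 1.47e-05), with no overlap. Of its 50-base stretches 26% also occur in another gene. Gstt1 (chr10:75246557-75261329), whose product acts on small halogenated compounds, was at 85.5, 107 and 86.4 RPKM in room air on 10% fat, at 109, 132 and 105 in room air on 60% fat, at 44.3, 44.7 and 40.6 under oxygen on 10% fat, and at 48.9, 41.9 and 42.4 under oxygen on 60% fat. All oxygen libraries lay below all room-air libraries, by 2.57-fold on 60% fat (−1.36 ± 0.11, adjusted p = 7.27e-07) and 2.13-fold on 10% fat (−1.09 ± 0.11, adjusted p = 5.21e-06). Gstt2 fell 1.6-fold on 60% fat (−0.68 ± 0.11, adjusted p = 0.000178). On 10% fat its change was −0.25 ± 0.11 (adjusted p = 0.0661), which passed without room-air replicate 3 (−0.31, adjusted p = 0.0493) and without replicate 2 of room air on 60% fat (−0.25, 0.0358).

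Gstk1 (chr6:42195933-42200440), the kappa enzyme of mitochondria and peroxisomes, was at 53.6, 64.0 and 52.5 RPKM in room air on 10% fat, at 55.9, 65.8 and 57.2 in room air on 60% fat, at 30.9, 30.0 and 26.9 under oxygen on 10% fat, and at 28.9, 26.2 and 23.6 under oxygen on 60% fat. It fell 2.25-fold on 60% fat (log2 change −1.17 ± 0.10, adjusted p = 1.56e-06) and 1.92-fold on 10% fat (−0.94 ± 0.10, adjusted p = 1.07e-05), without overlap. Gstz1, the zeta enzyme that isomerizes maleylacetoacetate in tyrosine breakdown, fell 1.78-fold and 1.39-fold.

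In the mu class Gstm7 (chr3:107729251-107734663) was at 3.62, 3.35 and 3.11 RPKM in room air on 10% fat, at 4.71, 4.71 and 3 in room air on 60% fat, at 1.88, 2.26 and 1.37 under oxygen on 10% fat, and at 1.30, 1.19 and 1.72 under oxygen on 60% fat. The oxygen libraries lay below the room-air libraries in each diet, with a log2 change of −1.27 ± 0.18 on 60% fat (adjusted p = 7.6e-05) and −0.74 ± 0.18 on 10% fat (adjusted p = 0.0041). The Gstm7 call on 10% fat was lost with quantile normalization (−0.45, adjusted p = 0.0626). Gstm1 and Gstm2, the most abundant mu genes, fell by 1.29-fold and 1.41-fold on 60% fat. On 10% fat Gstm2 fell by 0.31 on the log2 scale (adjusted p = 0.021), although its groups overlapped, and Gstm1 differed by 0.02 (95% interval −0.17 to 0.21). The Gstm2 call on 10% fat was lost without room-air replicate 1 (−0.27, adjusted p = 0.0674), room-air replicate 2 (−0.24, 0.0896) or oxygen replicate 3 (−0.24, 0.0935), and with median-ratio scaling (−0.23, 0.0821). Gstm6 fell by 0.56 on 60% fat (adjusted p = 0.019), a call lost without room-air replicate 2 (−0.46, adjusted p = 0.0684) or oxygen replicate 3 (−0.40, 0.0913), or with quantile normalization (−0.30, 0.196). Another gene or pseudogene holds 23.1% of the 50-base stretches of Gstm1 and 11.8% of those of Gstm6. Gstm4 and Gstm5 were not called in either diet. On 10% fat Gstm4 passed without oxygen replicate 1 (−0.50, adjusted p = 0.0163) and Gstm5 without room-air replicate 3 (−0.39, adjusted p = 0.0347).

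**Figure D4:**
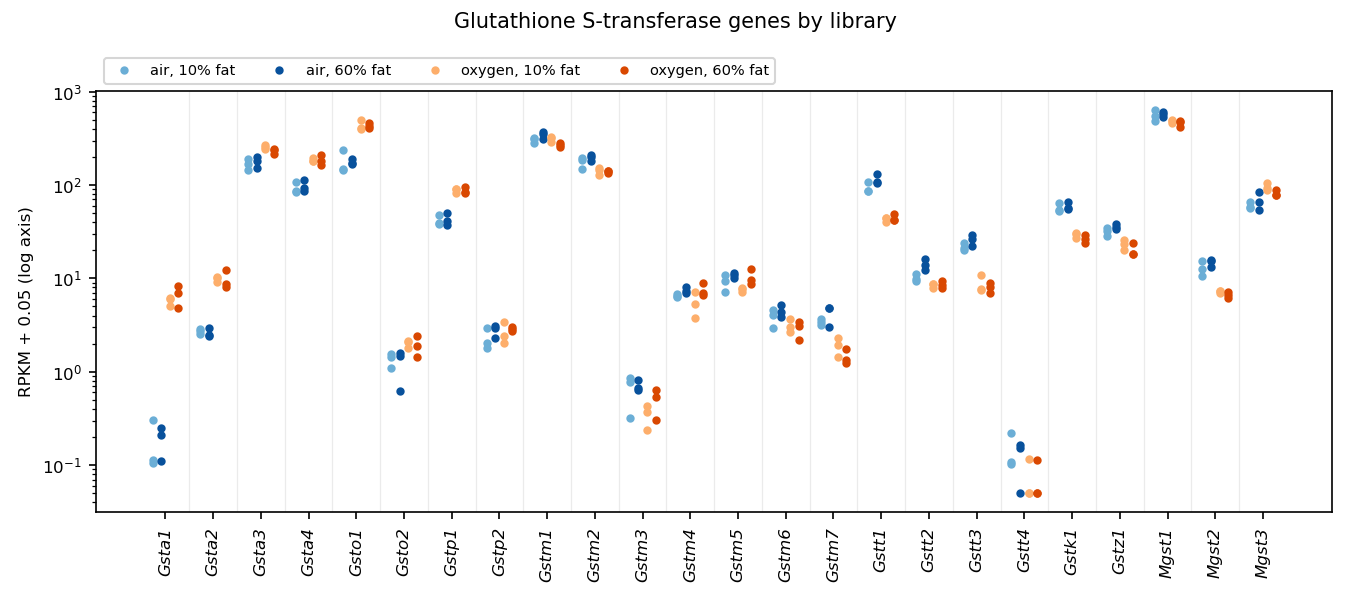
RPKM + 0.05 (log y axis) of the 24 cytosolic, kappa and microsomal transferase genes by library, ordered by class; each group has its colour and its column of 3 points. Within each diet the oxygen points stand above the room-air points for Gsta1 to Gsta4, Gsto1 and Gstp1, and below them for Gstt1 to Gstt3, Gstk1, Gstz1 and Mgst2.

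Of the microsomal transferases, Mgst2 (chr3:51465114-51486597), which can make leukotriene C4, was at 10.5, 15.2 and 12.4 RPKM in room air on 10% fat, at 15.8, 15.4 and 13.2 in room air on 60% fat, at 7.36, 6.86 and 7.33 under oxygen on 10% fat, and at 6.62, 6.13 and 7.01 under oxygen on 60% fat. It fell 2.16-fold on 60% fat (log2 change −1.11 ± 0.12, adjusted p = 8.08e-06) and 1.7-fold on 10% fat (−0.77 ± 0.12, adjusted p = 0.000171), and the groups did not overlap. Mgst1, second by level among the 44 genes in room air, with means of 570 and 557 RPKM on 60% and 10% fat, fell by 0.32 on the log2 scale on 60% fat (adjusted p = 0.0147). That call was lost without oxygen replicate 3 (−0.26, adjusted p = 0.0683) and with median-ratio scaling (−0.23, 0.108). On 10% fat Mgst1 was not called (−0.20 ± 0.10), but passed without room-air replicate 1 (−0.29, adjusted p = 0.0214) and with quantile normalization (−0.36, 0.0012). Mgst3 rose 1.59-fold on 10% fat (adjusted p = 0.000959). On 60% fat its change was 0.29 ± 0.13 (adjusted p = 0.0782), which passed without room-air replicate 2 (0.45, adjusted p = 0.0041).

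Gamma-glutamyltransferases cleave glutathione and its conjugates outside the cell. Ggt5 (chr10:75052125-75079713), known for converting leukotriene C4 to D4, was at 3.03, 3.38 and 3.74 RPKM in room air on 10% fat, at 2.78, 3.05 and 2.63 in room air on 60% fat, at 1.13, 0.8 and 1.55 under oxygen on 10% fat, and at 1.29, 0.722 and 1.15 under oxygen on 60% fat. The fall was 2.16-fold on 60% fat (log2 change −1.11 ± 0.18, adjusted p = 0.000182) and 2.38-fold on 10% fat (−1.25 ± 0.18, adjusted p = 8.48e-05), and no library overlapped. Ggt1, its neighbour, rose 1.54-fold and 1.55-fold to means of 1.71 and 2.02 RPKM. Ggt6 was called on 60% fat alone (0.54 ± 0.16, adjusted p = 0.0118), a call lost without room-air replicate 1 (0.44, adjusted p = 0.0504) or oxygen replicate 2 (0.44, 0.0564). Ggt7 was called on 10% fat alone (0.51 ± 0.15, adjusted p = 0.00954). Ggt7 passed the filter of 1 RPKM only through the oxygen libraries on 10% fat, where it was high. Its p-value is therefore no independent support for that rise or for a call on that diet alone. Neither Ggt6 nor Ggt7 had a difference between diets that passed the test.

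Glrx (chr13:75977333-75987599), the cytosolic glutaredoxin, which removes glutathione from protein thiols, was at 29.0, 34.7 and 42.8 RPKM in room air on 10% fat, at 34.6, 34.4 and 38.5 in room air on 60% fat, at 44.3, 41.5 and 41.9 under oxygen on 10% fat, and at 44.5, 46.4 and 49.8 under oxygen on 60% fat. It rose by 0.38 ± 0.11 (log2) on 60% fat (adjusted p = 0.0108), without overlap. On 10% fat the groups overlapped and the change was 0.28 ± 0.11 (adjusted p = 0.0533), which passed without room-air replicate 3 (0.42, adjusted p = 0.00289). Glrx2, the mitochondrial form, was not called in either diet. Glo1 (chr17:30729806-30749604), glyoxalase I, which uses glutathione to detoxify methylglyoxal, was at 39.8, 44.4 and 43.1 RPKM in room air on 10% fat, at 39.9, 44.1 and 43.0 in room air on 60% fat, at 34.0, 32.3 and 29.8 under oxygen on 10% fat, and at 35.4, 32.6 and 30.3 under oxygen on 60% fat. It fell 1.29-fold on 60% fat (adjusted p = 0.00179) and 1.32-fold on 10% fat (adjusted p = 0.00109), without overlap, and 46.9% of its 50-base stretches also occur in another gene. Hagh, glyoxalase II, fell 1.64-fold on 60% fat and 1.32-fold on 10% fat (adjusted p = 0.000271 and 0.0134). Its 10% fat call was lost without room-air replicate 2 (−0.29, adjusted p = 0.0655) or oxygen replicate 3 (−0.34, 0.0564), and with median-ratio scaling (−0.32, 0.0545).

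Several of the genes lie side by side. Of all tested genes, 26.3% were called higher and 36.5% lower on 60% fat, and 25.3% and 34.2% on 10% fat. Between Gclc and Gsta2 on chromosome 9 (77602341 to 78194952), the 4 glutathione genes Gclc, Gsta4, Gsta1 and Gsta2 rose in both diets. The genes between them did not move as one. Fbxo9, an F-box gene, fell by 1.63 on the log2 scale on 60% fat, Elovl5, a fatty acid elongase gene, fell by 0.20, and the kinase gene Ick rose by 0.35. On 10% fat Fbxo9 and Elovl5 were also called lower (−1.49 and −0.21), and Ick was not called (0.24, limma adjusted p = 0.0555). Gm3776, next to Gsta1, rose by 3.65 on 60% fat and 3.53 on 10% fat, and 82.9% of the 50-base stretches of Gsta1 also occur in it. On chromosome 10, between 75036337 and 75297626, Ggt1 rose in both diets while Ggt5, Gstt3 and Gstt1 fell in both, and Gstt2 fell on 60% fat. In the Gstm cluster on chromosome 3 (107698771 to 107847777), 4 of 6 tested genes fell on 60% fat and 2 on 10% fat, beside 36.5% and 34.2% of all tested genes.

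**Figure D5:**
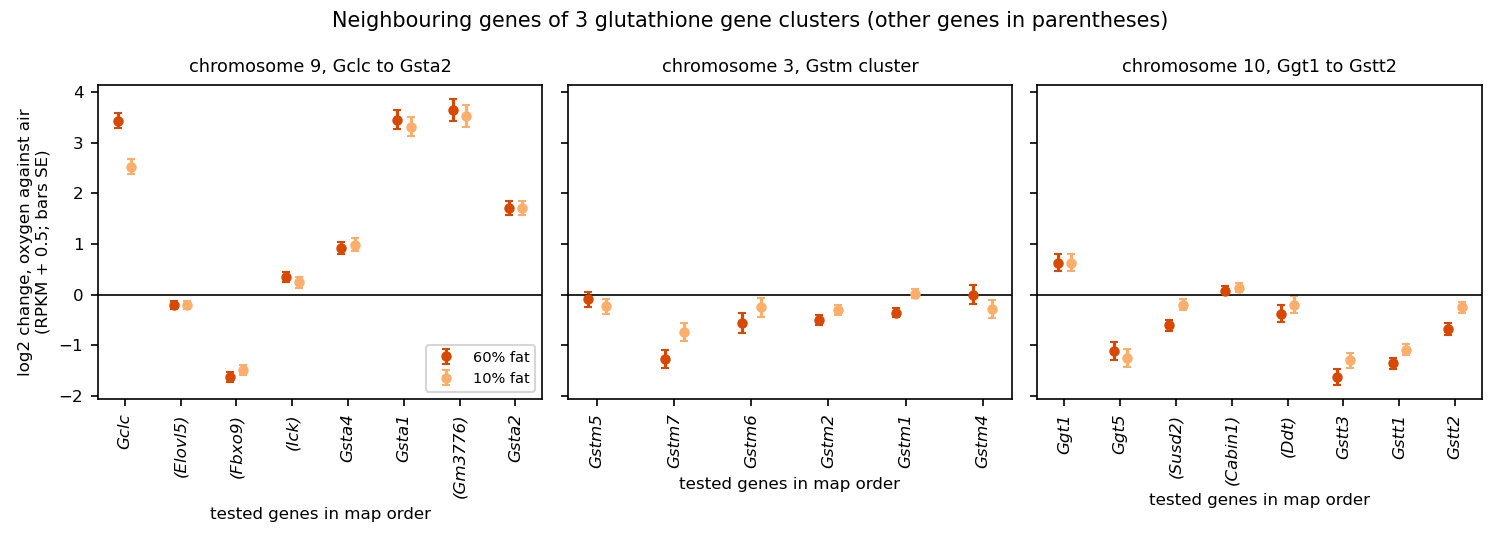
Log2 change under oxygen against room air (y axis, of RPKM + 0.5, bars SE) of the tested genes of 3 clusters in map order; dark points are the 60% fat diet, light points the 10% fat diet, and genes in parentheses are not glutathione genes of the set. On chromosome 9 the glutathione genes lie above 0 with Fbxo9 (−1.63 on 60% fat) between them, and on chromosome 10 Ggt1 lies above 0 with Ggt5 and the theta genes below.

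Lists of other genes of the pathway, chosen with earlier results of these data known, are described by counts, without a test of a list. They stand beside the 26.3% of all tested genes called higher and 36.5% called lower on 60% fat. On 10% fat these shares were 25.3% and 34.2%. Of 8 tested genes that supply cystine, cysteine and glutamate, 6 rose on 60% fat and 7 on 10% fat, with median log2 changes of 0.99 and 0.76, against −0.09 and −0.08 for all genes. Slc7a11, the cystine importer, rose by 3.93 and 3.16, from means of 0.708 and 1.41 RPKM in room air to 17.7 and 15 under oxygen. Its partner chain Slc3a2 rose by 1.80 and 1.64, the glutamine carrier Slc1a5 by 0.99 and 0.78, and Cth, the enzyme that releases cysteine from cystathionine, by 1.58 and 1.5. Among 7 genes of export of glutathione and its conjugates 4 rose in each diet (medians 0.69 and 0.24): the transporter genes Abcc1 (1.33 and 1.23), Abcc3 (0.92 and 0.73), Abcc4 (0.84 and 0.54) and Abcc5 (0.69 and 0.24).

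Of 10 genes of glutathione breakdown and recovery of its amino acids, 3 rose and 2 fell on 60% fat, and 3 rose and 1 fell on 10% fat (medians 0.12 and −0.00), shares close to those of all genes or below them. Chac1, which cleaves glutathione inside the cell, rose by 2.33 and 2.21, and the dipeptidase gene Dpep3 by 1.32 and 1.37. Anpep, an aminopeptidase of the cell surface, fell by 1.82 and 1.66, and the dipeptidase gene Cndp2 rose by 0.53 and 0.55. Of 12 other genes of glutathione use, 5 rose and 1 fell on 60% fat and 5 rose on 10% fat (medians 0.26 and 0.20). Esd, S-formylglutathione hydrolase, rose by 2.52 and 2.24. Hpgds, the glutathione-dependent prostaglandin D synthase, rose by 1.26 and 1.37, Glrx3 by 0.55 and 0.31, while Txndc12 fell by 0.30 on 60% fat. Of 9 genes of selenoprotein synthesis, which the selenium-dependent Gpx1 to Gpx4 need, 1 rose and 2 fell on 60% fat and 2 rose and 2 fell on 10% fat (medians −0.02 and −0.04), each share below that of all genes. Trnau1ap rose by 0.42 and 0.39, Sephs1 fell by 0.52 and 0.48 and Pstk fell by 0.28 and 0.42.

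Cell type markers, also chosen with earlier results of these data known, are counted in the same comparisons. Of all tested genes, 36.5% were called lower on 60% fat and 34.2% on 10% fat. Of 9 club cell markers, 6 fell on 60% fat and 4 on 10% fat, where 1 rose, and their summed RPKM ran from 107092 to 186658 in room air and from 16700 to 28126 under oxygen. Of 8 ciliated cell markers 7 fell in each diet (sums 151 to 196 and 91.1 to 103), and of 9 alveolar type 2 markers 8 fell on 60% fat and 7 on 10% fat (29720 to 43035 and 12087 to 19306). All 8 cardiac muscle markers fell in both diets (331 to 569 and 33.6 to 121). Of 7 alveolar type 1 markers 1 rose and 3 fell on 60% fat and 2 fell on 10% fat, and of 7 endothelial markers 2 rose and 4 fell and 3 fell. Of 7 fibroblast markers 1 rose and 1 fell on 60% fat and 2 rose and 1 fell on 10% fat, and of 6 macrophage markers 2 rose and 2 fell and 2 fell. In each diet 2 of 5 neutrophil markers fell, and their sums ran from 437 to 3450 in room air and from 91.1 to 1780 under oxygen. Of 4 erythroid markers 3 fell in each diet, but their sums varied widely: 48.4 to 103 in room air and 27.7 to 46.7 under oxygen on 10% fat, and 63.7 to 2945 in room air and 836 to 1397 under oxygen on 60% fat, where the exposures overlapped. The sums of 4 hepatocyte markers, none tested, stayed between 0.489 and 0.959 RPKM. No listed marker in the table was at 0 in all libraries. The part of these shifts in the changes of the glutathione genes was not tested.

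Diet was compared within each exposure. In room air 0.150% of all tested genes were called (20 genes), of which 65% were higher on 60% fat, or 54.5% after quantile normalization. Under oxygen 0.00751% were called (1 gene), and 0.0375% (5 genes) for the interaction (the log2 change under oxygen on 60% fat less that on 10% fat). None of the 40 glutathione genes was called by limma in any of the 3, with 3 genes under an unadjusted p of 0.05 in each (1622, 1076 and 1371 of all tested genes) and smallest adjusted p-values of 0.118, 0.508 and 0.169. Among the 46 tested genes of the supply, breakdown, export, use and selenoprotein lists, limma also called none, with 5, 7 and 7 under an unadjusted p of 0.05. A missed threshold does not show that the diets acted alike.

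Libraries of one exposure with the same replicate number deviated together, so the number was also fitted as a block within exposure. In the blocked fit 3.50% of all tested genes (466) were called in the room-air comparison of the diets and 1.82% (243) in the interaction. In room air Gclc was then called lower on 60% fat (log2 change −0.63, adjusted p = 0.0347 blocked and 0.118 unblocked), and Gstt1 (0.31, adjusted p = 0.034 and 0.272) and Gstt2 (0.45, adjusted p = 0.0374 and 0.13) were called higher. Gclc was at 78.3 ± 1.26 RPKM (SD, n = 3) on 60% fat and 125 ± 35.6 on 10% fat in room air, without overlap, and at 858 ± 57.3 and 703 ± 30.7 under oxygen, again without overlap but in the other order (0.29 ± 0.15, adjusted p = 0.683). Its oxygen effect was larger on 60% fat by 0.92 ± 0.21 (log2), with an adjusted p of 0.169 unblocked and 0.0425 blocked. Without replicate 1 of room air on 10% fat, the lowest of its group, the interaction was 1.09 (adjusted p = 0.0402) and the diet difference in room air −0.80 (adjusted p = 0.0286). Replicate 3 of room air on 10% fat was the highest of its group for Gclc, at 164 RPKM against 95.1 and 115. Over all alternatives the interaction lay between 0.70 and 1.09 (adjusted p from 0.0402 to 0.409). The diet difference in room air lay between −0.80 and −0.41 (limma, adjusted p from 0.0286 to 0.488). Gstt1 and Gstt2 had means of 115 and 13.9 RPKM on 60% fat against 92.8 and 10.1 on 10% fat in room air, and of 44.4 and 8.48 against 43.2 and 8.36 under oxygen.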

How the data were processed

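Whole lung RNA of 12 samples was compared. The tools named are bcl2fastq 2.19 and TopHat2 2.0.11, and the builds mm8 and mm9, per the submitters' processing notes. The deposited values are RPKM made by the authors, with a status per value, by a program not given in the sources used here. Of 20793 entries, 208 marked as low data were left out, and 85 failed values in 26 entries were treated as missing. Tested were 13324 genes with at least 1 RPKM in at least 3 of 12 libraries and at least 2 values per group. limma 3.58.1 in R 4.3.3 fitted log2(RPKM + 0.5) with a mean for each of 4 groups and variances moderated along a mean trend (residual degrees of freedom 8, prior 4.26), two-sided, with Benjamini-Hochberg adjustment at 0.05 over all tested genes; the fit was tested on simulated data. Intervals are 95%. Single sums and ratios were compared by exact permutation tests.

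Depths were estimated from the steps between low RPKM values in 13847 transcripts that reach 1000 bases, after taking 200 bases off each length, a value picked from these data. Such depths make genes with few reads imprecise. Sharing of 50-base stretches was counted in the reference transcripts, and start-site windows were read from RefSeq. Deviations from group means correlated between same-numbered libraries within an exposure (r from 0.293 to 0.486, 6 pairs), not with other numbers (-0.304 to 0.01, 12 pairs) or across exposures (-0.131 to 0.22, 12 pairs), so the number was fitted as a block within exposure for comparisons that involve diet.

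Genes and lists were chosen with earlier results of these data known. Given in every library were Gclc, Gclm, Gss, Gsr, Gpx1 to Gpx4, Glrx and Glo1, and in each oxygen comparison the 6 largest rises and 6 largest falls among called genes; up to 4 genes of each pathway list are named, those with the smallest p on 60% fat. Genes whose call changed under an alternative are named for that reason. Python 3.11.15, pandas 2.3.3, scipy 1.17.1 and matplotlib 3.10.9 made the summaries and figures.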

Additional observations from a re-analysis of the deposited data

Results flagged for a closer look

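The oxygen effect on Gclc differed between the diets by 0.92 on the log2 scale. It stood out because a test of the difference itself passed in the fit with the replicate number as a block within exposure (limma, adjusted p = 0.0425), and did not pass without the block (adjusted p = 0.169). With the number as a block over all libraries it did not pass either (limma, adjusted p = 0.137). The difference passed in 2 of 22 alternatives.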

How the results depend on the processing

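Counts of called genes were recomputed with pseudocounts of 0.1 and 1, no filter or a stricter one, quantile normalization or median-ratio scaling, other variance models, only the libraries compared (not for the interaction), a replicate block, and leaving out 1 library at a time. On 60% fat the genes called higher under oxygen numbered 14, from 13 to 17 with a library left out and from 11 to 16 otherwise, and those called lower 17, from 14 to 17 in both. On 10% fat they numbered 15 higher (14 to 16, and 12 to 17) and 11 lower (9 to 13, and 9 to 12). The lowest counts came with a mean RPKM of at least 5, under which fewer genes are tested. Where a gene was tested, calls held in every alternative for 12 of 14 and 14 of 17 genes on 60% fat (not Ggt6 and Gsta3, nor Gpx1, Gstm6 and Mgst1) and for 14 of 15 and 8 of 11 on 10% fat (not Gpx4, nor Gstm2, Gstm7 and Hagh). With quantile normalization Gstm7 on 10% fat was at -0.45 (adjusted p = 0.0626), Gstm6 on 60% fat at -0.30 (0.196) and Gpx4 on 10% fat at 0.12 (0.176); the cause was not tested. Quantile normalization also called Ggt7 (adjusted p = 0.005) and Gsto2 (0.00822) higher on 60% fat. On 10% fat it called Ggt6 (0.0173) and Gsto2 (0.0145) higher and Gpx1 lower (0.0254). With only the libraries compared, Gsto2 was called higher on 10% fat (0.025). Median-ratio scaling called Gsto2 (0.0346) and Mgst3 (0.042) higher on 60% fat and Glrx (0.0243) on 10% fat, and dropped Hagh on 10% fat (0.0545). No called gene changed direction.

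The replicate block within exposure moved the genes called for diet in room air from 0 to 2 higher and 1 lower, and for the interaction from 0 to 1 higher. Leaving out a library gave 0 to 1 lower for diet in room air and 0 to 1 higher for the interaction; the 1 in each is Gclc without replicate 1 of room air on 10% fat. For the oxygen comparisons that block was not run, since its numbers are nested in exposure. With the number as a block over all libraries, Gsto2 was called higher on 60% fat (adjusted p = 0.0118) and 10% fat (0.0284), Glrx higher (0.0322) and Gstt2 lower (0.0426) on 10% fat. That block matches libraries across exposures, where deviations of the same number showed little correlation (r from -0.131 to 0.22). The added calls therefore rest on a matching that these data do not show. Genes near 1 RPKM rest on few reads, and changes in Gsta1 or the low Ggt genes are limited by depth.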
